A study of Arabidopsis thaliana with 4 samples.

Results

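The genes described here are 10 transcription regulators of the morning arm of the Arabidopsis circadian clock, chosen by locus from the 33602 genes of the deposited table. They are the MYB-related factors CCA1 (AT2G46830), LHY (AT1G01060), RVE1 (AT5G17300), RVE2 (AT5G37260), RVE4 (AT5G02840), RVE6 (AT5G52660), RVE7 (AT1G18330) and RVE8 (AT3G09600), and the co-activators LNK1 (AT5G64170) and LNK2 (AT3G54500). All 10 loci were in the table. RNA came from whole Arabidopsis thaliana seedlings of the Columbia (Col) ecotype, 14 days old and grown in liquid 1/2 MS (-N), a salt medium lacking nitrogen, in cycles of 16 h light and 8 h dark at 22 °C after 2 days in the cold. Seedlings of the 0 h group were taken from that nitrogen-free medium, and those of the 0.5 h group came 0.5 h after a move into medium of the same kind that also held 2.5 mM glutamine (Gln). Each group had 2 libraries, and the study asks which genes respond early to glutamine. No genotype difference was involved, and seedlings moved without glutamine were not analysed here, so glutamine, the transfer and 0.5 h of clock time cannot be told apart. No source used here gives the time of day of sampling. Nothing in the labels says that the libraries came from separate cultures, so p-values measure only the spread between these libraries.

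In the Arabidopsis clock, CCA1 and LHY are expressed around dawn and repress genes of the day and the evening through short promoter sites such as the evening element. RVE4, RVE6 and RVE8 carry a related MYB domain but act as activators at the same kind of site, and LNK1 and LNK2, which do not bind DNA by a known domain of their own, are recruited by these factors to switch on genes such as PRR5 and TOC1. RVE1, RVE2 and RVE7 form another branch of the family, of which RVE1 links the clock to auxin synthesis. CCA1, LHY and their relatives all cycle over the day, so their transcript levels change with the hour even in undisturbed seedlings.

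The 4 libraries held between 20429739 and 27203588 reads in genes, as recovered from the deposited values. The 2nd library at 0.5 h was the shallowest, and chloroplast genes took 0.379% of its reads, where the other 3 libraries had 0.0569 to 0.0974%. Shoot and root transcripts were both present, as the label of whole seedlings says: the summed level of 7 shoot markers was 12108 and 12838 RPKM (reads per kilobase of gene, scaled to library size) at 0 h and 11715 and 12909 at 0.5 h, and that of 7 root markers 175 and 308 RPKM at 0 h and 194 and 182 at 0.5 h. RBCS1A and RBCS3B, RuBisCO small subunit genes of green tissue, had 7822 ± 199 and 2009 ± 134 RPKM at 0 h (SD, n = 2). PYK10, a root beta-glucosidase gene, and CASP1 of the root endodermis had 215 ± 81.4 and 11.8 ± 5.78 RPKM. The root-hair genes COBL9 and EXPA7 were low, at 0.0676 to 0.511 and 0.0704 to 1.76 RPKM. EXPA7 differed widely between libraries of the same time, with 0.422 and 1.06 RPKM at 0 h and 1.76 and 0.0704 at 0.5 h. Of the marker genes tested, 0 of 7 shoot and 0 of 5 root genes passed limma, with 2 and 1 at an unadjusted p below 0.05, and the same numbers passed with limma-voom, 0 and 0. The part of tissue make-up in the results was not tested, and in bulk RNA fewer cells of a type and less RNA per cell cannot be told apart.

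At 0.5 h most of the morning genes were lower and 1 was higher. LNK2, RVE8, CCA1, RVE1, RVE7, RVE4 and LNK1 fell, by 0.61 to 1.69 on the log2 scale, and RVE2 rose by 1.70. Of the 9 members with a mean of at least 1 RPKM, which were tested with limma on log2(RPKM + 1) over 18039 genes, 7 were lower and 1 higher at a Benjamini-Hochberg adjusted p below 0.05. Over all tested genes 5.11% were called lower and 6.71% higher, and the median log2 change was -0.03 against -0.92 for the 9 members. RVE6 did not pass and LHY was under the minimum. In 8 of the 9 tested members both 0.5 h libraries lay below both 0 h libraries, against 32.6% of all tested genes, and in RVE2 both lay above, against 27.1% (59.7% in either direction). With all libraries the count of members called lower was 7. It was 2 without the 1st library at 0 h, 4 without the 2nd, 5 without the 1st at 0.5 h and 3 without the 2nd, and 0 when no minimum level was asked for (7 lower at an unadjusted p below 0.05). RVE2 was called higher in each of these fits but the last.

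**Figure D1:**
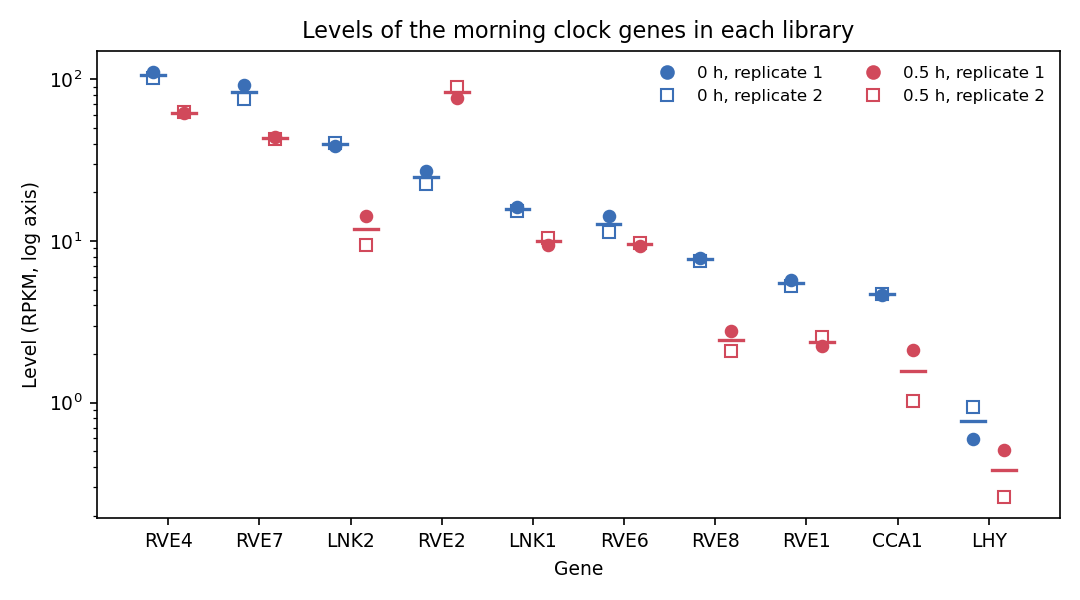
Level of each gene in RPKM on a log axis, with 1 point per library, circles for replicate 1 and squares for replicate 2, and a bar at the mean of the 2 libraries of each time; blue is 0 h and red 0.5 h. RVE2 is the gene whose red points lie above its blue ones, and the 0.5 h points of CCA1 and LNK2 are spread further than their 0 h points.

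CCA1 and LHY, the paired dawn repressors, were the lowest of the 10 at both times. CCA1, on chromosome 2, had 4.67 and 4.73 RPKM at 0 h and 2.13 and 1.02 RPKM at 0.5 h. The 0 h libraries were close together and both 0.5 h libraries lay below them, 1 of them much nearer to 0 than the other. CCA1 fell by 1.18 ± 0.23 (limma SE) on the log2(RPKM + 1) scale, with a limma adjusted p = 0.022, and the mean level at 0 h was 2.98 times that at 0.5 h. The CCA1 call was lost when either 0 h library was left out (adjusted p = 0.095 and 0.090), and also when the 2nd 0.5 h library was (adjusted p = 0.0503). LHY, on chromosome 1, had 0.597 and 0.939 RPKM at 0 h and 0.507 and 0.262 RPKM at 0.5 h, from 46 and 81 reads against 44 and 17. Its groups did not overlap, but the lower 0 h library was close to the higher 0.5 h library. With a mean of 0.768 ± 0.242 RPKM at 0 h and 0.384 ± 0.173 at 0.5 h (SD, n = 2), LHY was below the minimum for testing, and when no minimum was set it did not pass (limma log2 change -0.35, adjusted p = 0.40).

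RVE4, RVE6 and RVE8 act as activators at sites such as the evening element, and of these RVE4 and RVE8 fell and RVE6 did not pass. RVE8, on chromosome 3, had 7.83 and 7.55 RPKM at 0 h and 2.78 and 2.09 RPKM at 0.5 h, so both 0.5 h libraries were far below both 0 h libraries. RVE8 fell by 1.35 ± 0.16 on the log2 scale (limma adjusted p = 0.0062) and held place 80 among falls over all 18039 tested genes. RVE4, on chromosome 5 and the most abundant of the 10 at 0 h, had 111 and 103 RPKM at 0 h and 61.5 and 62.7 RPKM at 0.5 h. The 0.5 h libraries nearly coincided, and RVE4 fell by 0.77 ± 0.14 (limma adjusted p = 0.017). RVE4 no longer passed when the 1st 0 h library or either 0.5 h library was left out (adjusted p = 0.053 to 0.075). RVE6, also on chromosome 5, had 14.3 and 11.3 RPKM at 0 h and 9.30 and 9.75 RPKM at 0.5 h. Its groups did not overlap, yet the difference of -0.38 ± 0.15 did not pass (limma adjusted p = 0.15). The 0 h libraries of RVE6 lay further apart than the gap between its groups.

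RVE1, RVE2 and RVE7 belong to the other branch, and RVE2 went the opposite way to its relatives. RVE2, also known as CIRCADIAN 1 and located on chromosome 5, had 27.0 and 22.6 RPKM at 0 h and 76.3 and 89.5 RPKM at 0.5 h. Both 0.5 h libraries were far above both 0 h libraries, with a mean 3.34 times as high. RVE2 rose by 1.70 ± 0.16 on the log2 scale (limma adjusted p = 0.0047) and held place 58 among rises over all tested genes. At 0 h it was the 4th most abundant of the 10 genes, and at 0.5 h it was the most abundant in both libraries, with 34.3 and 38.9% of the summed RPKM of the 10 against 8.50 and 7.90% at 0 h. RVE1, on chromosome 5 and a factor that promotes auxin synthesis, had 5.74 and 5.28 RPKM at 0 h and 2.23 and 2.54 RPKM at 0.5 h. Its replicates were close at both times and it fell by 0.94 ± 0.15 (limma adjusted p = 0.013), a call lost when either 0 h library was left out (adjusted p = 0.084 and 0.056).

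RVE7, on chromosome 1 and first described as EARLY-PHYTOCHROME-RESPONSIVE1, had 92.0 and 75.4 RPKM at 0 h and 44.2 and 42.5 RPKM at 0.5 h. Both 0.5 h libraries lay well below the 0 h libraries, and RVE7 fell by 0.92 ± 0.15 (limma adjusted p = 0.014). The RVE7 call was lost when the 1st 0 h library or the 2nd 0.5 h library was left out (adjusted p = 0.062 and 0.065). Up to 0.786 of its reads were multi-mapped in the authors' table, the highest share among the 10. In the TAIR10.1 annotation the transcript of AT3G10113, annotated as a homeodomain-like protein, aligned to that of RVE7 over stretches of 615 and 488 bases with 99.8% identity in each. The table assigned 1.26 to 4.51% of the reads of both genes to AT3G10113. Added together, the 0 h libraries held 3724 and 3412 reads of both genes, and the 0.5 h libraries 2001 and 1511. Scaled to library size, this sum had a log2 difference of -0.93, against -0.94 for the reads of RVE7 alone on the same scale.

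The LNK co-activators carry the largest fall of the group. LNK2, on chromosome 3, had 38.8 and 40.4 RPKM at 0 h and 14.2 and 9.48 RPKM at 0.5 h. The 0 h libraries agreed closely, and the 0.5 h libraries lay far below and further apart. LNK2 fell by 1.69 ± 0.19 (limma adjusted p = 0.0058), place 33 among falls over all tested genes. LNK1, on chromosome 5, had 16.3 and 15.3 RPKM at 0 h and 9.50 and 10.5 RPKM at 0.5 h. LNK1 fell by 0.61 ± 0.13 (limma adjusted p = 0.029), the smallest change among those that passed, and it did not pass when any 1 of the 4 libraries was left out (adjusted p = 0.069 to 0.15). LNK1 overlaps AT5G64160 on the opposite strand by 245 bases in TAIR10.1. That gene had 38.7 and 26.6 RPKM at 0 h and 27.2 and 26.0 at 0.5 h. LNK2 overlaps AT3G54490 by 93 bases, a gene with at most 0.0690 RPKM, and the non-coding AT3G08405 by 266 bases, and RVE1 overlaps AT5G17305 by 225 bases. AT3G08405 and AT5G17305 were not analysed here. No source used here says whether strand was used in counting, so reads in these overlaps cannot be told apart.

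**Figure D2:**
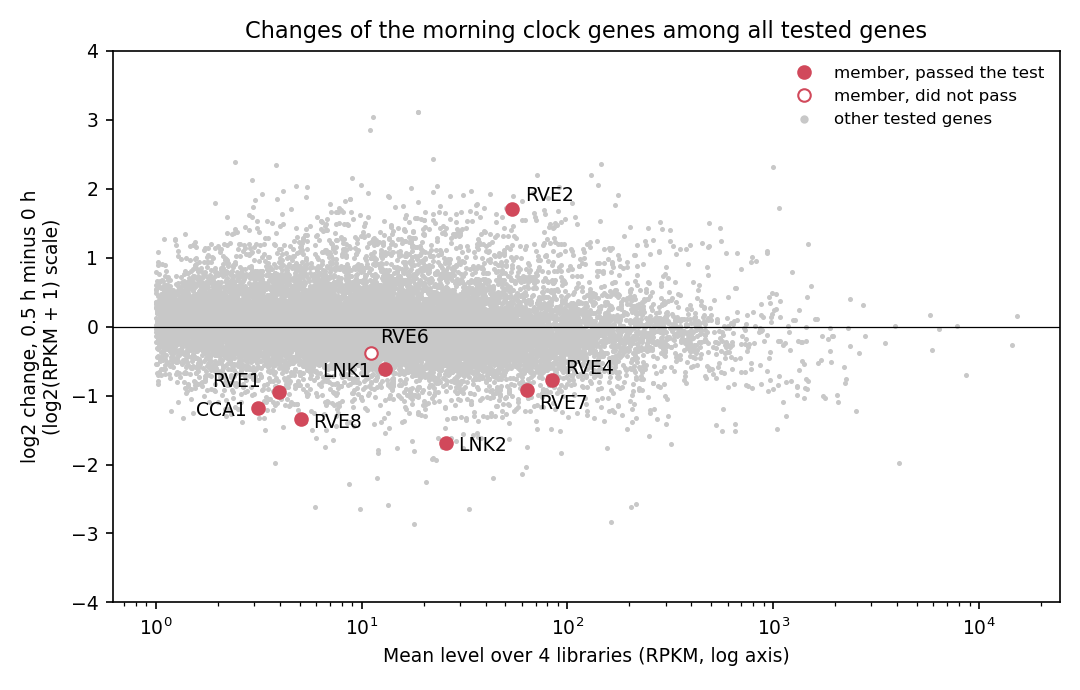
Fitted log2 change (0.5 h minus 0 h, log2(RPKM + 1) scale) against the mean level over 4 libraries in RPKM on a log axis, for all tested genes in grey and the 9 tested morning genes in red, filled where they passed the test; 2 genes with a change beyond 4 lie outside the axis. RVE2 stands at 1.70 and LNK2 at -1.69, both toward the edge of the grey cloud for genes of their level.

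The order of mean levels changed with RVE2. At 0 h the mean levels ran in the order RVE4, RVE7, LNK2, RVE2, LNK1, RVE6, RVE8, RVE1, CCA1 and LHY, and no neighbours in that order overlapped over their libraries. At 0.5 h they ran in the order RVE2, RVE4, RVE7, LNK2, LNK1, RVE6, RVE8, RVE1, CCA1 and LHY. There the ranges of LNK2 and LNK1, of LNK1 and RVE6, and of RVE8 and RVE1 overlapped. Beyond direct neighbours, LNK2 also overlapped RVE6, and RVE8 overlapped CCA1. The order within all these pairs is not resolved. Ratios of RPKM, which are per length, show the same shift: RVE2 was 4.71 and 4.28 times RVE1 at 0 h and 34.2 and 35.2 times at 0.5 h. RVE7 was 3.40 and 3.34 times RVE2 at 0 h and 0.580 and 0.475 times at 0.5 h. A ratio without RVE2 changed as well: LNK2 was 2.38 and 2.63 times LNK1 at 0 h and 1.495 and 0.902 times at 0.5 h.

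Differences between related members were set side by side for 7 pairs as the change, from 0 to 0.5 h, of the difference in log2(RPKM + 1). With 2 libraries against 2, an exact permutation test cannot go below p = 0.333, so this test could call no pair whatever the values, and they are given as a description. RVE2 against RVE7 changed by 2.63 and RVE1 against RVE2 by -2.64, the widest shifts. LNK1 against LNK2 changed by 1.07, RVE6 against RVE8 by 0.96 and RVE4 against RVE8 by 0.57 (0.04 with a pseudocount of 5), and in each of these 3 pairs the second gene had the larger drop. CCA1 against LHY changed by -0.83, on a scale that compresses the low values of LHY. In these 6 pairs the libraries of the 2 times did not overlap (two-sided exact p = 0.333, adjusted over 7 pairs 0.389). RVE1 against RVE7 changed by -0.02, with overlapping libraries (exact p = 0.667). That value depended on the scale, at -0.24 with a pseudocount of 0.1 and 0.36 with a pseudocount of 5.

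Sequence upstream of the morning genes was read from TAIR10.1, since the members moved in 2 directions. The 500 bases before each annotated gene start were searched on both strands for the evening element (AAAATATCT), the CCA1-binding site (AAAAATCT), the G-box (CACGTG), the LUX-binding site (GATACG or GATTCG) and a TCP-binding site (GGNCCCAC). These motifs do not overlap each other in the windows shown. The G-box, a site for light and clock factors, was found in 4 of the 10, CCA1, LHY, RVE1 and RVE2, against 9.35% of 27443 protein-coding promoters. The CCA1-binding site was found in LHY, RVE2 and RVE6 (12.5% of all promoters), the LUX-binding site in RVE4, RVE7, LNK1 and LNK2 (22.6%), the evening element in RVE7 (4.44%) and the TCP-binding site in CCA1 (1.54%). For RVE8 none of these letters stood in the window. G-box letters thus stand before RVE2, which rose, before CCA1 and RVE1, which fell, and before LHY, which was not tested. The 250 bases before the start are shown for these 4 genes and for RVE7, 5′ to 3′ in the direction of the gene, with motif letters in capitals. They lie at chr2:19245341-19245590 (plus strand) for CCA1, chr1:37872-38121 (minus) for LHY, chr5:5692993-5693242 (minus) for RVE1, chr5:14753089-14753338 (minus) for RVE2 and chr1:6308244-6308493 (minus) for RVE7. The deposited table names no coordinates, and the build given for it is TAIR10, so these positions are those of the TAIR10.1 annotation from RefSeq.
CCA1: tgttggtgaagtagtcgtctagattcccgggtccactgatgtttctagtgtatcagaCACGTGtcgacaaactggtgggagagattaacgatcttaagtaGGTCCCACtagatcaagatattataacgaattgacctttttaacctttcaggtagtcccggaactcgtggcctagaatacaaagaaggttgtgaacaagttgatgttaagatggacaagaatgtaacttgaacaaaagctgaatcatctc
LHY: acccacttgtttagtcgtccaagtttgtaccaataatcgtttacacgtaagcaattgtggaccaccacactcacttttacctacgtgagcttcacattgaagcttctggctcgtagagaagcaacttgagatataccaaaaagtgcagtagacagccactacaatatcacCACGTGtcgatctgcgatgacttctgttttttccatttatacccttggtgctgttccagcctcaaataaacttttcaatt
RVE1: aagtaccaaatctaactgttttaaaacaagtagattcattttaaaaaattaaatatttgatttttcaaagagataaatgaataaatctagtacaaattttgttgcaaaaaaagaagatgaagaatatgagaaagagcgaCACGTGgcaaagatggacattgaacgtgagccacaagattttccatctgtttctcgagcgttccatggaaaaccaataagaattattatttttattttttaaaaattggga
RVE2: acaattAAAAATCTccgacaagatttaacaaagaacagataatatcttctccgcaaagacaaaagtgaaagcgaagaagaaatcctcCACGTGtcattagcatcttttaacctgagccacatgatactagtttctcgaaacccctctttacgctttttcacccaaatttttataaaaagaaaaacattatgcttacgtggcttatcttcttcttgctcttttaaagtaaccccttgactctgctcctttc
RVE7: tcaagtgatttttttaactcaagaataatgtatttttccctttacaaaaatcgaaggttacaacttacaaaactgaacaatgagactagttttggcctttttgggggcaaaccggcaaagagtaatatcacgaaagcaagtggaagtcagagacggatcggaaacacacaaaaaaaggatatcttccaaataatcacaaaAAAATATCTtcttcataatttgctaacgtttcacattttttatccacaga
In CCA1 the capitals mark a G-box starting 193 bases before the gene and a TCP-binding site starting 150 bases before it. The G-box starts 80 bases before LHY, 111 before RVE1 and 163 before RVE2, and the RVE2 window also holds a CCA1-binding site starting 244 bases before the gene. In RVE7 the capitals mark an evening element starting 50 bases before the gene. Another evening element, on the opposite strand, starts 317 bases before RVE7, outside the window shown. A match of letters is a description and not a shown binding site.

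CCA1 and RVE4 lie near pseudo-response regulator genes, and the other members were not searched for such neighbours. CCA1 lies 10411 bases from PRR9 on chromosome 2, with 3 protein-coding genes between them, and RVE4 lies 6617 bases from PRR7 on chromosome 5, with 2 between them, in TAIR10.1. PRR9 and PRR7, pseudo-response regulators that repress CCA1 and LHY, fell by 0.90 ± 0.18 and 0.90 ± 0.16 (limma adjusted p = 0.024 and 0.018), with up to 0.786 of PRR9 reads multi-mapped. The 5 genes in between had log2 changes of -0.34 to 0.41 and did not pass.

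Around the 10 morning genes, 44 clock genes in 4 lists were read out of the same fit. Of 43 tested, 12 were lower and 3 higher, with a median log2 change of -0.30. Over all tested genes 5.11% were called lower and 6.71% higher, so the higher count was near the all-gene share. Counts of each list below are to be read against these shares. Leaving out 1 library gave 3 to 9 lower genes and 3 higher ones each time. Counts of lower genes were 4 and 6 without the 1st and 2nd library at 0 h and 3 without the 2nd at 0.5 h, and no minimum level left 0 in both directions (16 lower and 3 higher at an unadjusted p below 0.05). The lists were fixed with results of these data known, so their counts describe them and support no direction.

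Among near relatives, 1 of 4 tested was lower and 0 were higher (0 higher also at an unadjusted p below 0.05 and with limma-voom). LNK4 (AT5G06980) is a smaller member of the LNK family. It had 45.1 and 37.4 RPKM at 0 h and 17.6 and 14.0 RPKM at 0.5 h, and fell by 1.33 ± 0.17 (limma adjusted p = 0.0069). LNK3 (AT3G12320), another small LNK gene, had 5.84 and 4.54 RPKM at 0 h and 4.76 and 2.69 at 0.5 h, with overlapping groups (limma adjusted p = 0.29). AT4G01280, annotated with a MYB domain of the same class, had 22.3 ± 0.455 and 17.4 ± 0.426 RPKM and did not pass (-0.34 ± 0.12, adjusted p = 0.13). AT3G10113, the near copy of RVE7, had 3.29 ± 0.133 and 2.11 ± 1.66 RPKM, with up to 0.815 of its reads multi-mapped (adjusted p = 0.32). ASG4 (AT1G01520), at 0.140 ± 0.107 RPKM at 0 h, was not tested.

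The next list held clock genes that the morning factors are known to bind or regulate, with PRR3 added as the remaining pseudo-response regulator. Of 10 tested, 4 were lower and 1 was higher, with a median log2 change of -0.10. PRR5 (AT5G24470), which RVE8 and the LNK proteins activate, had 39.2 and 40.3 RPKM at 0 h and 22.3 and 18.6 RPKM at 0.5 h, and fell by 0.93 ± 0.14 (limma adjusted p = 0.012). GI (AT1G22770), the evening gene GIGANTEA, fell by 0.79 ± 0.14 (adjusted p = 0.016), from 39.8 ± 0.977 to 22.6 ± 2.26 RPKM. BOA (AT5G59570), a homologue of LUX, had 17.9 and 16.0 RPKM at 0 h and 42.6 and 60.4 RPKM at 0.5 h, and rose by 1.53 ± 0.19 (limma adjusted p = 0.0068). BOA overlaps AT5G59580 by 1896 bases, a gene with 0.395 to 0.786 RPKM. PRR3, TOC1, LUX, ELF3 and ELF4 did not pass, with log2 changes of -0.19 to 0.40.

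Regulators that act on the morning factors or their partners held 1 lower and 1 higher gene of 15 tested, with a median of -0.25. Both counts were near the all-gene shares of 5.11% lower and 6.71% higher. JMJ30 (AT3G20810), a jumonji-domain demethylase that takes part in the clock, had 18.7 and 15.3 RPKM at 0 h and 51.0 and 59.1 RPKM at 0.5 h, and rose by 1.64 ± 0.16 (limma adjusted p = 0.0047). Both of its 0.5 h libraries were far above both 0 h libraries. ZTL (AT5G57360), an F-box protein that marks TOC1 and PRR5 for breakdown, fell by 0.58 ± 0.12 (adjusted p = 0.031), from 29.2 ± 0.0445 to 19.2 ± 0.391 RPKM. LWD1 (AT1G12910), a WD-repeat activator of CCA1, had 30.8 ± 1.11 and 22.7 ± 0.410 RPKM (adjusted p = 0.078). HY5 (AT5G11260), a light-signalling bZIP factor, had 19.8 ± 5.78 and 31.6 ± 4.66 RPKM (adjusted p = 0.094), and neither passed.

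Of 14 clock output genes 6 were lower and 1 was higher, with a median of -0.57. CCL (AT3G26740), a CCR-like clock-controlled transcript, had 3785 and 3306 RPKM at 0 h and 1574 and 1453 RPKM at 0.5 h, and fell by 1.23 ± 0.18 (limma adjusted p = 0.011). PIF4 (AT2G43010), a growth-promoting bHLH factor, fell by 0.92 ± 0.20 (adjusted p = 0.033), and CBF1 (AT4G25490), a cold-response factor, by 0.87 ± 0.16 (adjusted p = 0.021). CBF2, GRP8 and CAT3 also fell, by 0.89 ± 0.22, 0.86 ± 0.21 and 0.83 ± 0.21. Each lay just under the threshold of 0.05 (limma adjusted p = 0.0471, 0.0473 and 0.0474). CDF1 (AT5G62430), a DOF repressor of flowering genes, had 6.63 and 6.22 RPKM at 0 h and 13.7 and 20.4 RPKM at 0.5 h, and rose by 1.26 ± 0.19 (adjusted p = 0.012). YUC8 (AT4G28720), an auxin-synthesis gene under RVE1, had 1.00 and 1.37 RPKM at 0 h and 2.78 and 1.40 at 0.5 h and did not pass (adjusted p = 0.28).

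**Figure D3:**
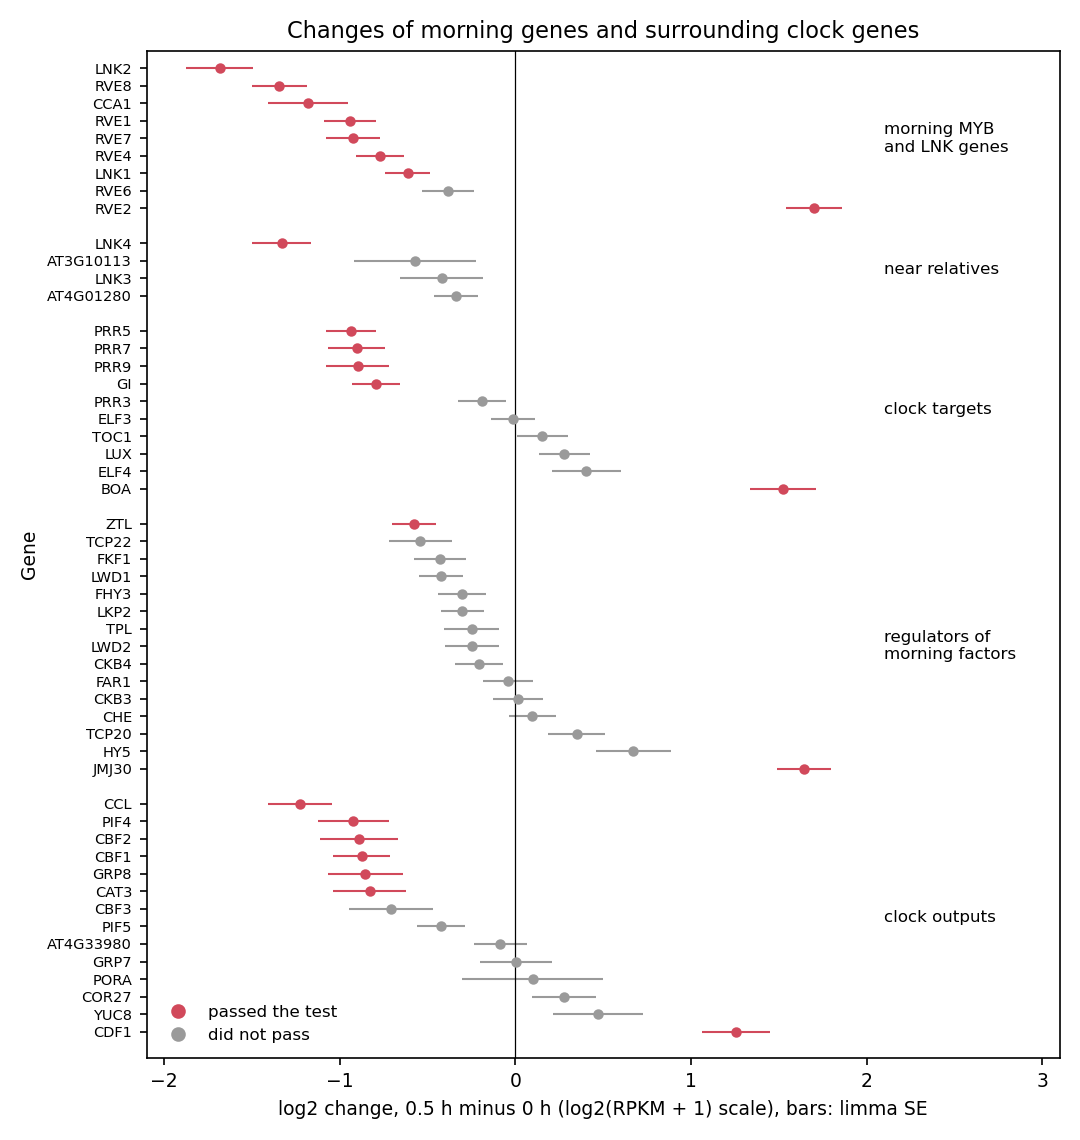
Fitted log2 change (0.5 h minus 0 h) with the limma standard error as bars, for the tested morning genes and the 4 surrounding clock lists, in red where the adjusted p was below 0.05 and in grey otherwise. In each list except the near relatives 1 gene, RVE2, BOA, JMJ30 or CDF1, lies at 1.26 or above while the other genes that passed lie below 0.

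**Figure D4:**
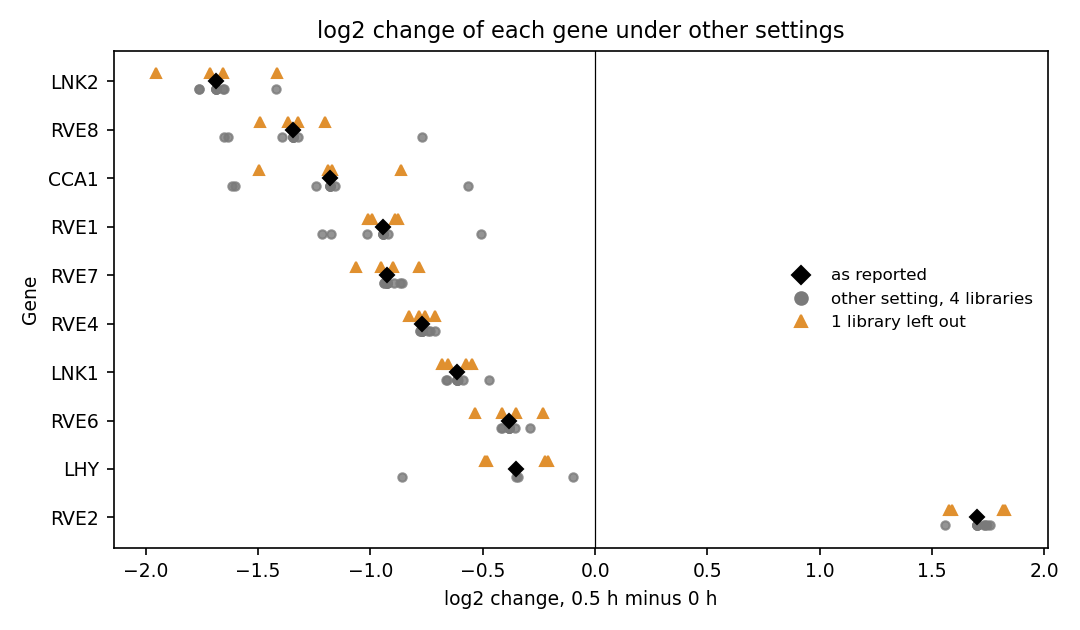
Log2 change of each of the 10 genes (0.5 h minus 0 h) as reported (black diamond), under other settings with all 4 libraries (grey circles) and with 1 library left out (orange triangles). Every symbol of RVE2 lies right of 0, from 1.56 to 1.83, and every symbol of the other 9 genes left of 0.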

How the data were processed

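RNA of 2 libraries per time was measured by RNA sequencing, and groups and replicate numbers come from the sample titles. The deposited table gives, per gene, RPKM that the authors scaled with TMM, per the file name, the gene length and the fraction of multi-mapped reads, which the authors report as the highest over the libraries. Per the submitters' processing notes, TAIR10 and SAMtools were used. Aligner, counter and strand setting: not given in the sources used here. RPKM times length lies on steps with 0.5 read added per gene, from which reads were recovered (whole within 0.05 read for at least 99.992% of genes without multi-mapped reads). Replicates differed beyond counting error (chi-square per gene 20.3 at 0 h and 16.5 at 0.5 h).

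The fit used limma 3.58.1 (R 4.3.3) and a variance trend on intensity, with group as its only term, on log2(RPKM + 1) of genes averaging 1 RPKM or more. The scale understates changes of low genes. Two-sided p-values were adjusted by the Benjamini-Hochberg method over all tested genes. With 2 residual and 4.824 prior degrees of freedom, a gene's variance leans on that of genes at similar levels. The fit was also run on simulated data in which all genes had the same dispersion, and that run is not used as support here. Alternatives were other pseudocounts, minimum levels, scalings and variance models, a replicate block, leaving out each library, dropping genes with a multi-mapped share above 0.05, and limma-voom on the recovered reads.

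The members, the gene lists and tests were chosen with earlier results of these data known. Genes named are all 10 members, up to 4 per surrounding list with the smallest p and the 2 most abundant shoot and root markers. Others were named after their values were seen, among them PRR9, PRR3, TOC1, LUX, ELF3, ELF4, CBF2, GRP8, CAT3, YUC8, COBL9, EXPA7 and ASG4. Names and overlaps come from TAIR10.1, whose gene models differ from those of the table in many lengths. Python 3.11.15, pandas 2.3.3, scipy 1.17.1 and matplotlib 3.10.9 were used.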

Additional observations from a re-analysis of the deposited data

How the results depend on the processing

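RVE2 stayed higher and the other 9 members stayed lower in sign under all settings run. RVE2, RVE8 and LNK2 passed limma under all of them except the fit with no minimum on the mean RPKM. That fit, over 33602 genes with 1.53 prior degrees of freedom, called 2 genes in all, 0 members lower, 0 members higher and 0 and 0 clock-list genes lower and higher; 7 members were lower and 1 higher at an unadjusted p below 0.05. With 1 library left out, where the lone library is assumed to vary like the others, 2 to 5 members were lower and 1 higher, 740 to 1918 genes were called in all, and 3 to 9 clock-list genes were lower and 3 higher. With a minimum of 5 RPKM, which leaves fewer members tested, 5 members were lower. The change of RVE8, CCA1 and RVE1 ran from -0.77, -0.57 and -0.51 with a pseudocount of 5 to -1.65, -1.62 and -1.22 with limma-voom. LHY, at a level near 1 RPKM or below, ran from -0.86 to -0.10 with the pseudocounts of 0.1 and 5. The difference between RVE1 and RVE7 was -0.24 with a pseudocount of 0.1 and turned to 0.36 with a pseudocount of 5. It was 0.07 without the 2nd 0 h library and 0.0754 without the 1st 0.5 h library. With 1 library left out it ran from -0.11 to 0.0754. RVE4 against RVE8 was 0.04 with a pseudocount of 5. By its arithmetic, a larger pseudocount shrinks the log2 change of low genes more than that of abundant ones. RVE4, at a high level, ran only from -0.78 to -0.74 with the pseudocounts of 0.1 and 5. Other causes of the shifts between settings were not tested.

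The replicate numbers give no pairing in the labels, and the replicate differences at 0 h and 0.5 h correlated at -0.0778 over tested genes. With a replicate block 7 members were lower and 1 higher, 1961 genes were called in all, and 11 clock-list genes were lower and 4 higher. LHY rested on 17 to 81 reads per library, and CCA1 at 0.5 h on 135 and 49.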

Other observations

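The MYB domain of the morning factors is of the class that the TAIR10.1 annotation calls SHAQKYF, after a conserved run of residues, and 85 loci carry that annotation, among them all 8 MYB members. Of the other 77 loci, 56 were tested, and 7 were lower and 4 higher. That is 12.5 and 7.14%, against 5.11 and 6.71% of all tested genes. The higher ones include BOA, already given among the clock targets, so the 77 loci are not all outside the clock lists. The median log2 change of the 56 was -0.11. GLK2 (AT5G44190), which promotes chloroplast development, fell from 30.8 ± 1.57 to 17.3 ± 3.33 RPKM (log2 change -0.81 ± 0.16, limma adjusted p = 0.026). HRS1 (AT1G13300), a repressor in nitrate and phosphate signalling, fell from 11.3 ± 5.32 to 4.25 ± 0.607 RPKM (-1.16 ± 0.29, limma adjusted p = 0.046), with a wide spread at 0 h. AT5G47390, annotated as KUA1 and MYBH, a regulator of cell expansion, fell by 0.56 ± 0.13 (limma adjusted p = 0.042). RR2 (AT4G16110), a cytokinin response regulator, rose by 0.60 ± 0.14 (limma adjusted p = 0.039). These genes were chosen after their values were seen.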
